A study of Mus musculus with 16 samples.

Results

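The 2 h response of control-virus hepatocytes to forskolin was described from 4 of the 16 arrays of the study, 2 titled for adenoviral GFP with forskolin for 2 h and 2 for adenoviral GFP with DMSO for 2 h, chosen by their titles alone. All 7746 genes with a detected probe enter the description. The cells were primary hepatocytes, taken from C57BL/6 mice of 6-8 wks into culture and infected with an adenovirus. Titles name the control virus GFP and the design text names it shGFP, so that these are infected cells and not untouched liver. The other groups used for comparison were the same control cells after 4 h of DMSO or of forskolin, and cells infected with an adenovirus carrying shRNA against HDAC4 and HDAC5 (shHDAC45 here) after 2 h of DMSO or of forskolin. Infection, culture and a DMSO vehicle or forskolin were common to every group, and no uninfected or untreated group was analysed here. Each group held 2 arrays, which limits the precision. The labels do not say whether they came from separate cultures, so every p-value rests on array-to-array spread alone, some or all of it possibly technical.

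Forskolin binds and activates adenylyl cyclase, the enzyme that makes cyclic AMP, and so acts downstream of the receptor through which glucagon signals to the liver in fasting. Cyclic AMP frees the catalytic subunits of protein kinase A, which phosphorylate the transcription factor CREB and, by inhibiting SIK1 and related kinases, let the CREB coactivators and class IIa histone deacetylases enter the nucleus. CREB and its relatives bind the cAMP response element, a short palindrome found near the start of many early response genes. NF-kB is the transcription factor behind most chemokine genes, and freshly plated hepatocytes are known to carry an inflammatory programme set off by isolation and infection.

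The 4 arrays held 8455 to 9176 probes above background, 34.4% to 37.3% of 24613. The arrays of a group correlated at 0.994 for DMSO and 0.992 for forskolin across genes, which are not independent replicates, and at 0.962 to 0.966 between the groups. Of 14 hepatocyte markers on the array 7 were detected in both groups (Serpina1a, Hnf4a, Ttr, Apoa1, Apoc3, Apob and Ahsg). The defining hepatocyte genes Alb, Tat, Fgb, Asgr1, Cyp2e1, Hpd and Cyp3a11 were not detected on any of the 4 arrays, at the probes this array carries. The summed signal of the hepatocyte markers was 24200 and 22600 with DMSO and 33100 and 31300 with forskolin. Genes of other liver cells were also present. Of 15 macrophage markers 9 were detected in both groups, with summed signals of 6250 and 6460 against 5950 and 5900. Of 12 stellate cell and fibroblast markers 7 were detected with DMSO and 5 with forskolin, of 13 endothelial markers 7 and 6, and of 7 bile duct markers 4 and 4. The summed signals were 46700 and 44000 against 46900 and 45000 for the stellate list, 2470 and 2510 against 2690 and 2720 for the endothelial list, and 5590 and 5650 against 3630 and 3640 for the bile duct list, whose member Sox9 fell. In RNA from a whole culture, fewer cells of a type and less RNA per cell cannot be told apart.

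After 2 h of forskolin 818 genes (10.6% of those tested) were higher and 833 (10.8%) lower. In each of the 1651 the 2 forskolin arrays lay wholly above or below the 2 DMSO arrays. Since the same arrays entered the test, that is no separate support for the calls. The test was limma's moderated test over all 16 arrays with Benjamini-Hochberg adjustment and a threshold of 0.05, and adjusted p below always means that test. Most changes were small, and 157 genes were at least 2-fold higher by the fitted difference, 41 at least 4-fold and 18 at least 8-fold. Downward, 179 genes had fallen at least 2-fold, 46 at least 4-fold and 18 at least 8-fold. Many of the largest changes led from or to levels below background. Of the 18 genes with rises of 8-fold or more 12 were below background with DMSO, and of the 18 such falls 11 ended below background. Where 1 group is below background a fold is given as a lower bound. For 158 of the 248 called genes with another detected probe, the other probe had a different call. Among genes named by rule these were Crem, Tgif1, Cebpd and Cyp27a1. Genes named only after their values had been seen also had probes that did not pass. Among them were Cxcl12 (0.51), Dusp10 (-0.42) and Actb (0.0071 and 0.070, with a further probe passing at 1.58). The median difference over all genes was -0.01 on the log2 scale, and changes are read against it. Without DMSO array A of the 2 h control group the count of 1651 became 1041, and a fit restricted to the 4 arrays themselves gave 1087. Without DMSO array B it was 1134, and without forskolin array A or B 1202 or 1165.

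**Figure D1:**
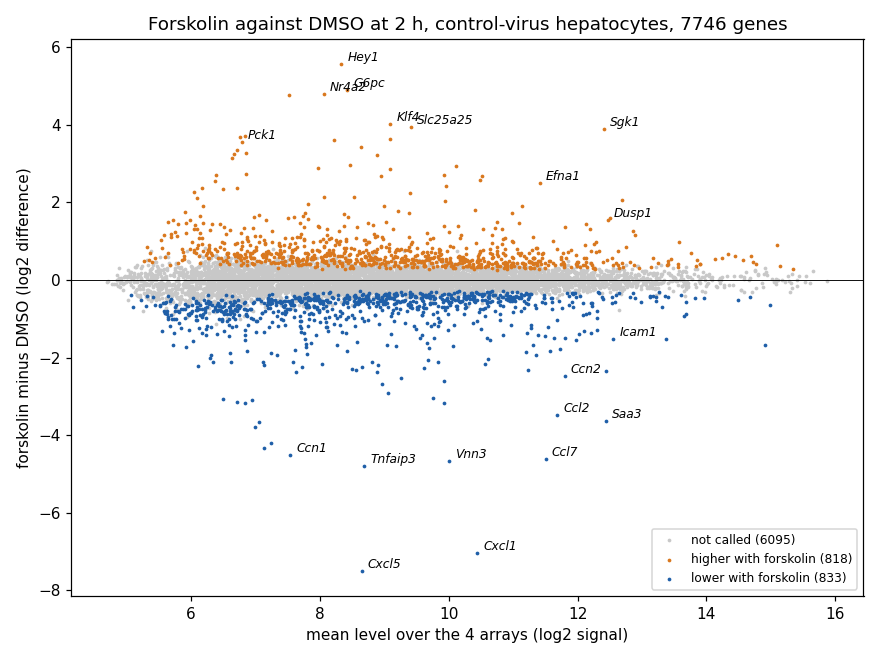
Each point is 1 of 7746 genes, placed by its mean level over the 4 arrays (log2 signal) and by the forskolin minus DMSO difference at 2 h in control-virus cells (log2). The 818 genes higher are orange, the 833 lower blue, and the most extreme points are the fall of Cxcl5 and the rise of Hey1.

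Most early genes tied to CREB rose. Of 15 measured members of that list 12 were higher, 0 lower and 3 did not pass, against a background of 10.6% higher, and the median difference was 2.35 (1.85 with genes below background at their bounds). Nr4a2, an orphan nuclear receptor induced by cAMP, had levels of 5.68 and 5.64 (log2) on the DMSO arrays and 10.45 and 10.46 on the forskolin arrays. The DMSO values lay below background and the forskolin values far above them, a rise of at least 16.1-fold (adjusted p = 1.6e-12). Sik1, a kinase that is itself part of the cAMP pathway, went from 5.21 and 5.06 to 9.86 and 9.97 (at least 11.1-fold, adjusted p = 8.2e-10). Crem, whose inducible form represses cAMP-driven transcription, went from 6.93 on both DMSO arrays to 10.17 and 10.52 (log2 difference 3.42, SE 0.14, adjusted p = 1.8e-09), although its other detected probe was at -0.35 and did not pass. Both regulators thus belong to the genes whose products act back on the pathway. Atf3, a stress-inducible factor of the CREB family, went from 7.0 and 6.98 to 9.84 and 10.04 (2.95, SE 0.13).

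Members of the AP-1 family of transcription factors did not move alike. Fosl2 rose from 8.73 and 8.57 to 11.57 and 11.58 (2.93, SE 0.12, adjusted p = 1.4e-09) and Junb from 8.77 and 9.07 to 10.85 and 11.08 (2.05, SE 0.12, adjusted p = 6.7e-08). Fosb rose from 5.38 and 5.26, below background, to 7.46 and 7.88, at least 2.33-fold, and Fos by 1.56 (SE 0.14) from a level detected on 1 of the 2 DMSO arrays. In all 4, as in every called gene, the groups were apart on every array. Jun, the common partner of the Fos proteins, had 9.38 and 8.97 with DMSO and 9.26 and 9.48 with forskolin, which overlapped (0.20, adjusted p = 0.37). Egr1, an immediate early gene of growth factor signalling, had 10.89 and 10.98 against 10.71 and 10.58 (-0.29, adjusted p = 0.21), and Btg1, a growth-restraining gene, -0.14 (adjusted p = 0.49). Dusp1, a phosphatase that switches off MAP kinases, was bright in both groups and rose from 11.75 and 11.65 to 13.30 and 13.17 (1.54, SE 0.11). Per1, a clock repressor, rose from 7.04 and 6.78 to 8.38 and 8.72 (1.64, SE 0.19, adjusted p = 5e-05).

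**Figure D2:**
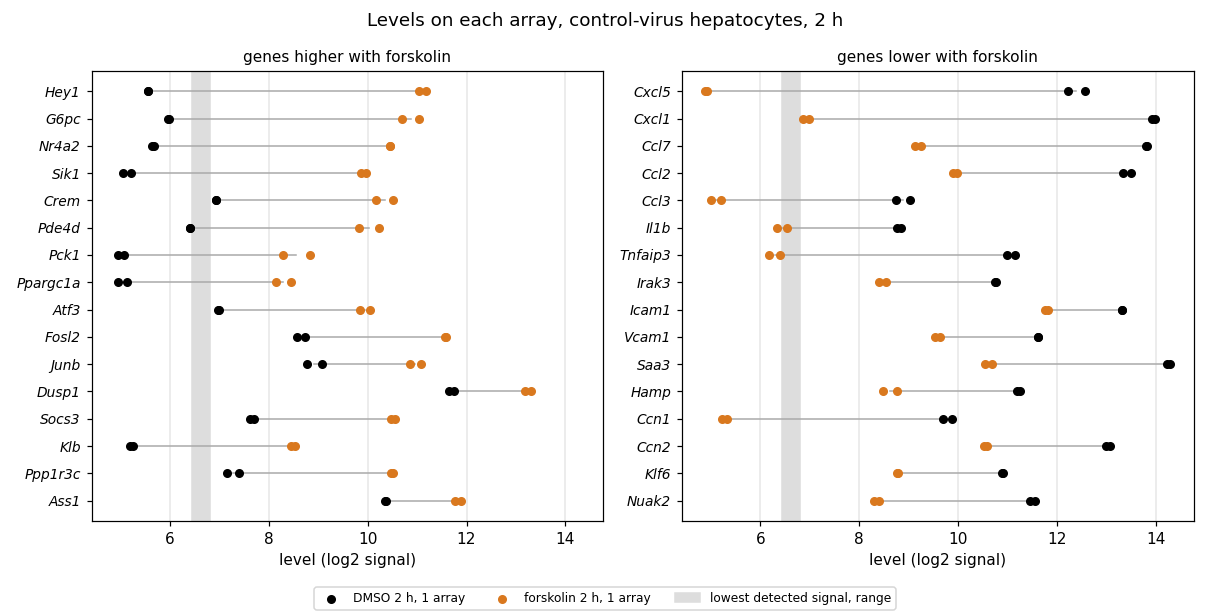
Levels (log2 signal) of 16 genes that rose and 16 that fell on each of the 2 DMSO arrays (black) and the 2 forskolin arrays (orange) at 2 h, with a line between the group means and a grey band at the lowest detected signal of the 4 arrays. The arrays of a group lie close together. All 32 genes were picked among those called from these arrays, so that groups without overlap are no separate support. They run from Ass1 with 10.36 on both DMSO arrays to Cxcl5 with a fall from 12.56 and 12.22 to 4.93 and 4.88.

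The machinery of the pathway itself changed in a few places. Of 30 measured components 9 were higher and 1 lower, with a median of 0.18, against 10.6% of all genes higher and 10.8% lower. Pde4d, a phosphodiesterase that breaks down cAMP, went from 6.41 on both DMSO arrays, below background, to 9.83 and 10.22, at least 12.0-fold (adjusted p = 1.6e-08). Pde10a rose by 1.31 (SE 0.13), whereas Pde3b (0.40, adjusted p = 0.14), Pde7a (-0.22, adjusted p = 0.43) and Pde8a (0.23, adjusted p = 0.22) did not pass the test. Pde4a passed while below background in both groups, so that no fold is given. The adenylyl cyclase Adcy9 rose by 1.38 (SE 0.19, adjusted p = 0.00015), and Adcy6 (-0.02) and Adcy7 (0.12) did not pass. Upstream and kinase components stayed near 0 without passing, with Gnas, the stimulatory G protein, at 0.02, the kinase A catalytic subunits Prkaca at 0.10 and Prkacb at 0.17, and the regulatory subunit Prkar1a at 0.07. The kinase Sik3 rose by 1.07 (SE 0.23, adjusted p = 0.0057), a call lost without forskolin array B. The liver CREB relative Creb3l3 rose by 0.90 (SE 0.11) but by 0.20 (adjusted p = 0.24) against the DMSO arrays of 4 h. The anchoring protein Akap12 rose by 0.61. The coactivator Crtc2 did not pass (0.15, adjusted p = 0.51). Creb1 passed downward but lay below background in both groups.

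The promoters of genes that rose were searched for the cAMP response element, TGACGTCA, and for its half-site TGACG, on both strands, in windows of 300 bases (250 before and 50 after the start, RefSeq, build GRCm38.p6). A promoter was found for 6343 of the 7746 genes, of which 5024 had a single one and were counted. The whole element stood in 3.28% of all these promoters, in 4.40% of those of genes called higher and in 2.36% of those called lower. The half-site, which the whole element contains, stood in 33.7% of all, in 35.9% of the higher genes, in 26.9% of the lower and in 14 of 27 (51.9%) of those at least 4-fold higher, while the whole element stood in 0 of these 27. Of the 25 largest rises 22 had an entry, 11 of them with the half-site and 1, Slc25a25, with the whole element, a gene with several promoters that the 27 leave out. These counts are a description with no test, and a match is not a shown binding site. Windows around the motif are printed for genes that carry the results above and below, 5′ to 3′ along the gene's strand, with the element or half-site in capitals (CGTCA is the half-site on the opposite strand):

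Slc25a25, chr2:32424184-32424241, minus strand: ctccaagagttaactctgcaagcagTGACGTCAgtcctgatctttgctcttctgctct

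Pck1, chr2:173152958-173153012, plus strand: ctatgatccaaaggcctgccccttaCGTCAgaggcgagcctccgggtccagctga

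Ppargc1a, chr5:51567745-51567799, minus strand: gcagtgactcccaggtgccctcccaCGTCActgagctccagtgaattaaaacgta

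Atf3, chr1:191183311-191183365, minus strand: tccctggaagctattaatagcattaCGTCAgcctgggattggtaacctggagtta

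Nr4a2, chr2:57124118-57124172, minus strand: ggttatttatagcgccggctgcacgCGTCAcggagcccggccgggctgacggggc

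Per1, chr11:69099995-69100049, plus strand: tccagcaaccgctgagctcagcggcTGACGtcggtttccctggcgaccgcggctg

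Klb, chr5:65348240-65348294, plus strand: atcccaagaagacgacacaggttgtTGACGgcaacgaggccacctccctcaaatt

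Counted from the annotated start, the half-site begins at -90 in Pck1, at -49 in Ppargc1a, at -7 in Atf3 and at -132 in Per1. Nr4a2 holds 4 half-sites in its promoter. The window printed has 1 of them in capitals and another, beginning at -123, in lower case.

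Genes of glucose output and of the fasting response followed, several of them below background with DMSO. G6pc, the glucose-6-phosphatase catalytic subunit, went from 5.96 and 5.99 to 10.70 and 11.04, and Pck1, the carboxykinase of gluconeogenesis, from 5.07 and 4.96 to 8.83 and 8.29. All 4 DMSO values were below background and all 4 forskolin values above it. These were the only 2 of 11 measured gluconeogenic enzymes called, 0 being lower, and the list's median was -0.07. Over all genes tested 10.6% were higher and 10.8% lower, the background for the fatty acid list below too. Ppargc1a, their coactivator, went from 4.96 and 5.13 to 8.14 and 8.44. Ppp1r3c, which directs protein phosphatase to glycogen, rose from 7.39 and 7.16 to 10.52 and 10.47 (3.22, SE 0.11, adjusted p = 2.5e-10), and the glycogen phosphorylase Pygl by 0.34 (SE 0.09, adjusted p = 0.020). The call of Pygl was lost against the DMSO arrays of 4 h (0.19), with only the arrays compared, and without DMSO array A, DMSO array B or forskolin array A. Pklr, the glycolytic pyruvate kinase of liver, fell by 1.07 (SE 0.14), but had 0.24 (adjusted p = 0.29) against the DMSO arrays of 4 h, as its DMSO level dropped by 1.30 between the times. Pdk4, which shuts pyruvate out of the citric acid cycle, rose from 7.41 and 7.83 to 9.30 and 9.17 (1.62, SE 0.14), 1 of 2 higher genes among 16 of fatty acid oxidation and ketogenesis. The other was Cpt2 (0.57, SE 0.13), and Acaa1a (-0.44, SE 0.11) was the 1 lower. Neither of the latter pair passed against the DMSO arrays of 4 h (Cpt2 0.27 and Acaa1a 0.02).

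In amino acid catabolism and the urea cycle 7 of 15 measured genes were higher and 2 lower. Over all genes tested 10.6% were higher and 10.8% lower, the background for the carrier and synthesis lists below too. Ass1, the argininosuccinate synthase of the urea cycle, went from 10.36 on both DMSO arrays to 11.88 and 11.77 (1.46, SE 0.09, adjusted p = 7.8e-08). Gnmt, a glycine methyltransferase, rose at least 1.66-fold from below background, and Aass, of lysine breakdown, by 0.97 (SE 0.10). Etnppl, which degrades phosphoethanolamine, went from 5.04 on both DMSO arrays to 8.41 and 8.37, at least 3.85-fold (adjusted p = 2e-08). Of 23 measured carriers and respiratory chain genes 9 were higher and 0 lower (median 0.25). Slc25a25, an ATP-magnesium carrier regulated by calcium, rose from 7.41 and 7.47 to 11.42 and 11.34. The glutamate carrier Slc25a22 rose from 8.22 and 8.32 to 9.76 and 9.78 (1.5, SE 0.11), the pyrimidine nucleotide carrier Slc25a33 by 1.23 (SE 0.15) and the ornithine carrier Slc25a15 by 1.09 (SE 0.11). Against the DMSO arrays of 4 h the count was 4 higher and 0 lower, and these 4 carriers were at 3.95, 1.10, 1.00 and 0.98. Of 21 genes of cholesterol and fatty acid synthesis 2 were higher and 1 lower, and of these Elovl6, a fatty acid elongase, was detected (0.70, SE 0.18, adjusted p = 0.012). Mvd and Idi1, of the mevalonate pathway, lay below background in both groups.

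Parts of insulin and growth factor signalling were higher, in lists to be read against 10.6% of all genes higher and 10.8% lower. Of 10 measured insulin and FOXO genes 5 were higher and 0 lower (median 0.67). Sgk1, a kinase related to Akt, went from 10.44 and 10.49 to 14.26 and 14.46. Socs3, which blocks cytokine receptor signalling and is a usual companion of inflammation, rose from 7.70 and 7.61 to 10.56 and 10.47 (2.86, SE 0.10, adjusted p = 4.2e-10). Foxo1 rose by 0.92 (SE 0.14), Igfbp1, a fasting-induced binding protein, by at least 1.63-fold, and Igf1 by 1.06 (SE 0.10), the last with 0.22 (adjusted p = 0.15) against the DMSO arrays of 4 h. Of 12 growth factors and receptors 6 were higher and 1 lower, but 3 higher and 2 lower against DMSO at 4 h (median 0.10). Klb, the co-receptor through which FGF21 and its relatives act, went from 5.20 and 5.24 to 8.52 and 8.45, at least 4.12-fold (adjusted p = 2.4e-10). Efna1, a membrane ligand of Eph receptors, rose from 10.19 and 10.14 to 12.73 and 12.61 (2.51, SE 0.11) and Vegfa, the vascular growth factor, by 0.84 (SE 0.10). Pdgfb, the platelet-derived growth factor, fell from 10.60 and 10.81 to 8.75 and 8.54 (-2.06, SE 0.13, adjusted p = 8.9e-08).

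Transcription factors of several families split into those that rose and those that fell, in lists whose shares are to be read against 10.6% of all genes higher and 10.8% lower. Among bHLH repressors Hey1 went from 5.55 on both DMSO arrays to 11.18 and 11.04, whereas Hes1, like Hey1 a target of Notch in other settings, fell from 10.31 and 10.32 to 9.26 and 9.41 (-0.98, SE 0.10, adjusted p = 1.2e-05). Bhlhe40, which also acts in the clock, rose from 11.69 and 11.63 to 13.90 and 13.56. Of 10 Kruppel-like factors 4 were higher and 3 lower. Klf4 rose from 7.27 and 6.89 to 11.28 and 10.94 and Klf15, a factor of amino acid use in fasting, by 0.81 (SE 0.13), while Klf6 fell from 10.88 and 10.91 to 8.77 and 8.78 (-2.12, SE 0.09, adjusted p = 2.6e-09) and Klf5 by 0.98 (SE 0.12). Those opposite directions held against the DMSO arrays of 4 h, where Klf4 was at 4.10, Klf15 at 0.70, Klf6 at -2.32 and Klf5 at -0.92. Of 18 liver transcription factors 4 were higher and 3 lower. Cebpb, a factor of the acute phase and of gluconeogenesis, rose from 12.22 and 12.40 to 13.44 and 13.48 (1.15, SE 0.11) and Cebpd fell by 0.89 (SE 0.11), the latter with -0.29 (adjusted p = 0.08) against DMSO at 4 h, and Cebpd's other detected probe was at 0.08 and did not pass. Nr1h4, the bile acid receptor, fell from 10.35 and 10.51 to 9.48 and 9.62 (-0.88, SE 0.11). Foxa3 and Hnf4a rose by 1.31 (SE 0.10) and 1.11 (SE 0.12). Of 13 coregulators 2 were higher, Ppargc1a and the deacetylase Sirt1 (0.86, SE 0.15), and of 7 histone deacetylases Hdac5 (1.06, SE 0.13) and Hdac11 (0.66, SE 0.16), the latter at -0.38 (adjusted p = 0.13) against DMSO at 4 h.

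The largest falls were in secreted inflammatory ligands. Of 23 measured chemokines and cytokines 17 were lower and 2 higher, against a background of 10.8% lower. The median over the 23 was -1.45. With genes below background at their bounds it was -2.19, but over only 16 of the 23, as members without a bound were left out. Of the 23, 5 lay below background in both groups. The medians thus cover different members, and the lower value does not show a larger fall. Cxcl1, a neutrophil attractant, went from 13.99 and 13.92 to 6.99 and 6.87, and Cxcl5, of the same family, from 12.56 and 12.22 to below background. The monocyte attractants Ccl2 (13.50 and 13.34 to 9.98 and 9.90) and Ccl7 (13.81 and 13.82 to 9.12 and 9.26) fell too. Their differences were -3.48 (SE 0.13) and -4.62 (SE 0.11). Ccl3, a macrophage-derived chemokine in many settings, went from 8.75 and 9.03 to below background, at least 4.44-fold lower (adjusted p = 3.8e-10). Csf1, the growth factor of macrophages, fell from 11.34 and 11.22 to 8.24 and 8.23 (-3.04, SE 0.11), and Il1b, interleukin 1 beta, from 8.85 and 8.77 to below background, at least 4.20-fold (adjusted p = 1.4e-08). The 2 ligands higher, named after their values had been seen, were Cxcl12 (0.99) and Il33 (0.44).

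Many receptors and signal carriers of the same pathways fell with their ligands, in lists to be read against 10.8% of all genes lower and 10.6% higher. Of 20 receptors and adaptors 11 were lower and 0 higher (median -0.56). Irak3, an inhibitory kinase of the Toll pathway, fell from 10.76 and 10.74 to 8.40 and 8.55 (-2.28, SE 0.11), Tlr2 from 10.50 and 10.64 to 8.84 and 8.80 (-1.74, SE 0.11), and Cd14, the lipopolysaccharide co-receptor, from 12.15 and 12.13 to 10.44 and 10.49 (-1.67, SE 0.10). Of 16 NF-kB subunits and feedback inhibitors 11 were lower and 1 higher (median -1.08). Tnfaip3, an ubiquitin-editing inhibitor of NF-kB, went from 11.15 and 11 to below background (6.18 and 6.40). Nfkbiz and Tnip1, of the same list, fell by 1.71 (SE 0.14) and 1.16 (SE 0.09). Nfkbia, the inhibitor that NF-kB induces most directly, fell by 2.24, and Bcl3, a nuclear relative of it, was the 1 member higher (1.90), both named after their values had been seen. The other 4 members did not pass.

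Promoters of the genes with the largest falls were read for an NF-kB motif, GGANTTTCC, on both strands. This form was chosen after the data had been seen, in place of longer forms of the same motif. It stood in 1.41% of all promoters counted, in 2.95% of those of genes called lower, in 1.53% of those called higher, and in 8 of 32 (25%) of those at least 4-fold lower. The longer forms of the motif stood in 1.63% and 0.438% of all and in 25% and 18.8% of those at least 4-fold lower. The AP-1 motif TGANTCA stood in 4.98% of all and in 7 of 32 (21.9%) of the same promoters. Of the 25 largest falls 19 had an entry and 8 held the NF-kB motif, and windows of 5 of them and of Icam1 follow with the motif in capitals, 5′ to 3′ along the gene's strand:

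Cxcl1, chr5:90891150-90891208, plus strand: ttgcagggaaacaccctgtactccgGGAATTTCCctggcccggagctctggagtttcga

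Cxcl2, chr5:90903778-90903836, plus strand: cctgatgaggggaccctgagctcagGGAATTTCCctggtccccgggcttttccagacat

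Csf1, chr3:107760590-107760648, minus strand: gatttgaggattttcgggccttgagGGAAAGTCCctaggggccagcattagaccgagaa

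Ltb, chr17:35194395-35194453, plus strand: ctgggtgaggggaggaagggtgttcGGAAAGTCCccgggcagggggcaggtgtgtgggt

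Tnfaip3, chr10:19015401-19015459, minus strand: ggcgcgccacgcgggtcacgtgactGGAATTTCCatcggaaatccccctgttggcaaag

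Icam1, chr9:21015762-21015820, plus strand: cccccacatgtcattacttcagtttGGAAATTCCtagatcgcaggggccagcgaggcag

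In Cxcl1 and Cxcl2, neighbours on chromosome 5, the capitals are the same 9 letters, beginning at -70 and -96 from the start.

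Many acute phase, adhesion and interferon genes were lower as well, in lists to be read against 10.8% of all genes lower and 10.6% higher. Of 19 hepatocyte acute phase genes 12 were lower and 0 higher (median -0.92). Saa3, a serum amyloid protein, fell from 14.22 and 14.29 to 10.55 and 10.68 (-3.64, SE 0.15, adjusted p = 1.4e-09), and Hamp, the iron hormone hepcidin, from 11.19 and 11.24 to 8.48 and 8.76 (-2.60, SE 0.16, adjusted p = 8e-08). Crp, the C-reactive protein, fell by 1.93 (SE 0.12) and Saa4 by 2.31 (SE 0.13). Of 22 adhesion and matrix genes 10 were lower and 2 higher, the leukocyte ligands Vcam1 falling from 11.62 on both DMSO arrays to 9.54 and 9.63 (-2.04, SE 0.10) and Icam1 from 13.32 on both to 11.75 and 11.83 (-1.53, SE 0.10). The collagenase Mmp13 fell by 2.11 (SE 0.13) and the hyaluronan receptor Cd44 to below background, at least 2.09-fold. Of 16 interferon genes 8 were lower and 0 higher, Irf1, a transcription factor of that response, from 9.27 and 8.94 to 7.55 and 7.30 and Ifit2 by 0.62 (SE 0.10). Macrophage markers did not move as 1 list, with 2 of 9 higher (Vsig4 0.51 and C1qa 0.60) and 3 lower (Marco -0.78, Adgre1 -0.53 and, named after its value had been seen, Lyz2 -0.44), and the part of these cells in the falls was not tested. Against DMSO at 4 h the list had 0 higher and 1 lower, Vsig4 at -0.34, C1qa at 0.10, Marco at -0.08 and Adgre1 at 0.06.

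A large part of this inflammatory fall depended on which DMSO arrays stood for the control. With no forskolin, 468 genes (6.04%) were higher and 439 (5.67%) lower in control cells at 4 h than at 2 h of DMSO, among the latter 17 of the 23 chemokines and cytokines, 10 of the 16 NF-kB genes and 10 of the 19 acute phase genes. Against the DMSO arrays of 4 h, 514 genes (6.64%) were higher after 2 h of forskolin and 741 (9.57%) lower, and 711 of the 1651 genes were called there too. The chemokine and cytokine list then had 4 members higher and 8 lower (median -0.03), the receptors and adaptors 1 and 2, the NF-kB list 1 and 3, the acute phase list 1 and 2, the interferon list 1 and 4 and the adhesion list 3 and 2. Cxcl5, Cxcl2 and Il1b were below background on the DMSO arrays of 4 h as well as with forskolin, so that no fold is given. Vnn3 (-0.37), Saa3 (0.41), Hamp (0.26), Icam1 (0.15) and Irak3 (-0.08) did not pass there, and Cd14 passed in the opposite direction (0.65). Other ligands were lower against either time, namely Cxcl1 (-4.04), Csf1 (-1.84), Ccl2 (-1.49) and Ccl7 (-1.43), with Irf1 at -1.64. Ccl4, Ccl3 and Tnfaip3, below background with forskolin, were at least 2.58-fold, 1.55-fold and 9.86-fold lower than on the DMSO arrays of 4 h. Both comparisons use the same forskolin arrays, and the DMSO times differ in nothing else the labels name.

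**Figure D3:**
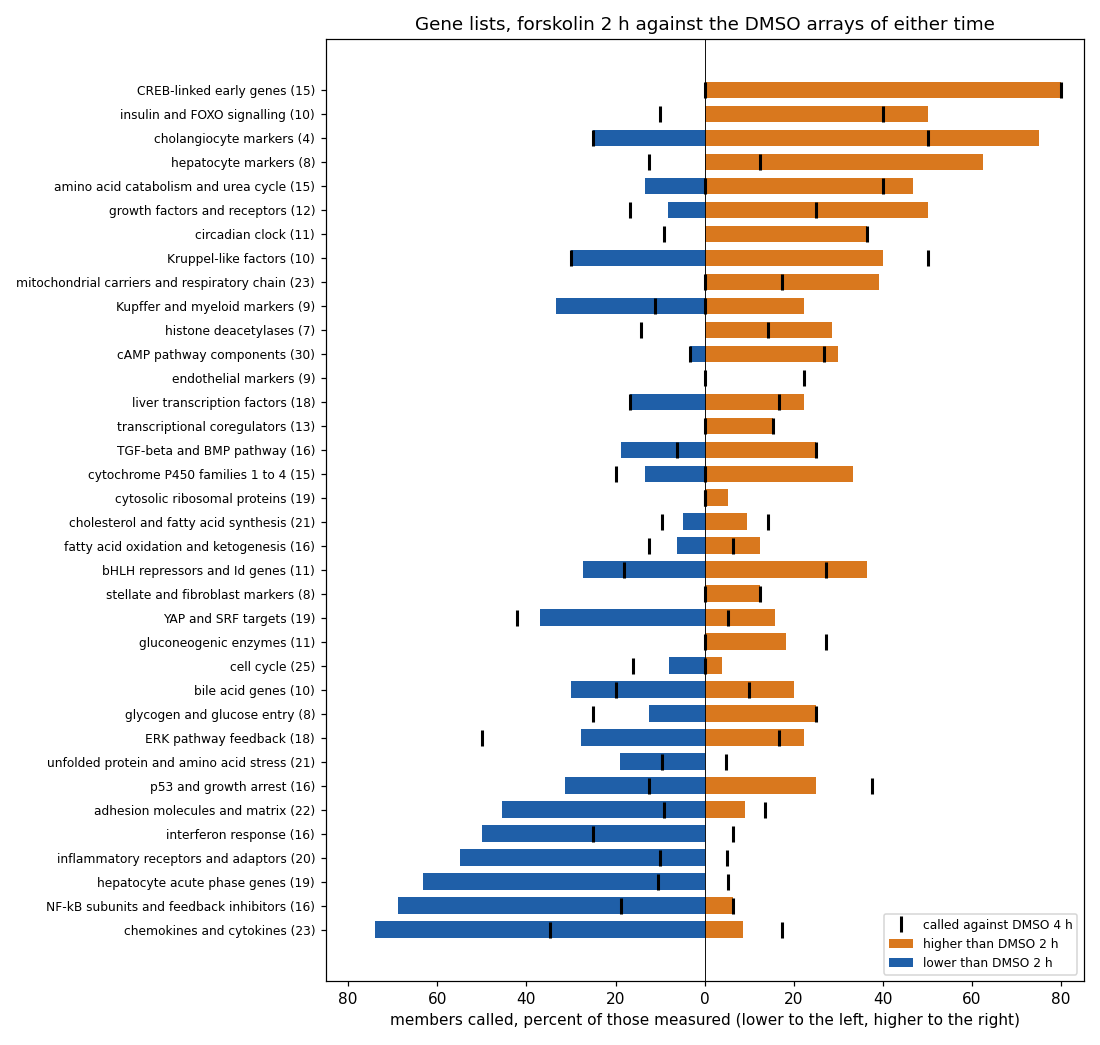
For each of 36 gene lists (members measured in parentheses), the share of members lower (blue, to the left) and higher (orange, to the right) after 2 h of forskolin against DMSO at 2 h, in percent, with black ticks at the shares against DMSO at 4 h. For CREB-linked early genes bar and tick coincide at 12 of 15, whereas for chemokines and cytokines the lower side shrinks from 17 to 8 of 23.

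Some targets of the cytoskeleton-linked factors YAP and SRF were lower against both DMSO times. Of 19 measured 7 were lower, 3 higher and 9 did not pass (median -0.07), and against the DMSO arrays of 4 h 8 were lower and 1 higher (median 0.03). Over all genes tested 10.8% were lower and 10.6% higher, and against DMSO at 4 h 9.57% and 6.64%, shares that apply to the ERK list below too. Ccn1, a matrix-associated signalling protein, went from 9.88 and 9.70 to 5.22 and 5.33, below background, and Ccn2, its relative, from 13.00 and 13.07 to 10.59 and 10.53 (-2.47, SE 0.14, adjusted p = 4.1e-08). Nuak2, a kinase related to AMPK, fell from 11.56 and 11.45 to 8.40 and 8.30 (-3.16, SE 0.10, adjusted p = 1.3e-10), and Amotl2, a junction protein that restrains YAP, from 8.22 and 8.35 to below background, at least 2.91-fold. Against DMSO at 4 h Ccn2 was at -3.13 and Nuak2 at -3.77, and Ccn1 and Amotl2 were at least 7.83-fold and 2.50-fold lower. Lmcd1 was higher by 0.65 but lower, at -0.79, against DMSO at 4 h. Among ERK feedback genes, 4 of 18 higher and 5 lower, Phlda1 fell from 12.33 and 12.42 to 10.87 and 10.91 (-1.48, SE 0.11) and Myc, the growth-promoting factor, from 8.23 and 8.15 to below background, at least 2.72-fold, whereas Errfi1, an inhibitor of the EGF receptor, rose by 1.27 (SE 0.10). Against DMSO at 4 h the ERK list had 3 higher and 9 lower. Rnd3, a GTPase that loosens actin fibres, fell from 10.32 and 10.29 to 7.52 and 7.75 (-2.67, SE 0.14), and F3, tissue factor, from 10.15 and 9.99 to 8.12 and 7.28 (-2.37, SE 0.20). Sox9, a bile duct and injury factor, fell from 12.14 and 12.15 to 10.95 and 10.91 (-1.21, SE 0.10), while the duct keratins Krt19 and Krt7 rose by 0.73 and 0.69. The call of Krt19 was lost with no filter on dim probes and without any 1 of the 4 arrays.

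Other lists had few members called or rested on the choice of DMSO arrays, and shares near 10.6% higher and 10.8% lower match the background. Of 16 TGF-beta and BMP genes 4 were higher and 3 lower, with the receptor Tgfbr1 up from 11.41 and 11.39 to 12.90 and 12.80 (1.45, SE 0.11), the activin antagonist Fst by 1.39 (SE 0.09), and the corepressor Tgif1 down by 1.15 (SE 0.12), while its other 2 detected probes, at -0.25 and -0.22, did not pass. Of 11 clock genes 4 were higher and 0 lower, namely Bhlhe40, Per1, Rora (1.33, SE 0.14) and Cry2 (0.47, SE 0.11). Of 16 p53 and growth arrest genes 4 were higher and 5 lower, with the kinase Plk3 up from 7.59 and 7.61 to 10.31 and 10.25 (2.68, SE 0.11) and the death receptor Fas down by 1.2 (SE 0.15). Of 15 cytochrome P450 genes 5 were higher and 2 lower, but 0 higher and 3 lower against DMSO at 4 h, where Cyp2c37 was at 0.06 and Cyp2c70 at 0.09. The hepatocyte markers behaved likewise, with 5 of 8 higher and 0 lower, but 1 higher (Hnf4a 0.47) and 1 lower (Ttr -0.39) against DMSO at 4 h. Of 21 stress genes of the unfolded protein response 4 were lower and 0 higher, Herpud1 by 1.11 (SE 0.12) among them, of 10 bile acid genes 2 were higher and 3 lower, with the transporter Abcc3 falling from 11.91 and 11.87 to 10.49 and 10.59, and of 25 cell cycle genes 1 was higher (E2f1 0.66) and 2 lower (Cdkn2b -1.49 and Ccne2, below background). Of 19 ribosomal protein genes 1, Rps27 (0.56), was higher and 0 lower. Of 8 stellate cell markers 1, Col1a1 (1.02, SE 0.18), was higher.

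Members of small counts that the naming rule left out were named after their values had been seen. Among Kruppel-like factors these were Klf13 (0.70), Klf16 (0.61) and Klf7 (-0.67), among bHLH and Id genes Id3 (0.72), Hes6 (0.58) and Id1 (-1.91), and among ERK feedback phosphatases Dusp14 (0.97), Dusp8 (0.68), Dusp6 (-1.06), Dusp10 (-0.89) and Dusp16 (-0.73). Bmp6 (0.93), Bmp4 (-0.53) and Smad1 (-0.47) belonged to the TGF-beta and BMP list, and Cdkn1a (0.34), Gadd45b (-0.85), Plk2 (-0.58), Bbc3 (-0.52) and Zmat3 (-0.44) to the p53 list. Bckdhb (-0.79) and Mat1a (-0.64) were the lower amino acid genes, and Actb (0.41) and Tpm1 (0.57) the other higher YAP and SRF targets. Onecut2 (0.86), Timp3 (0.81), Abcb4 (0.35), Apoa1 (0.45), Cyp1a2 (0.56) and Cyp2d10 (0.71) were higher in their lists.

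The remaining largest rises held genes of no list. Fam222a went from 7.22 and 7.33 to 10.92 and 10.89 (3.63, SE 0.12). Usp2, a ubiquitin protease under clock control, rose at least 4.75-fold, C2cd4a at least 4.46-fold and Adh7, an alcohol dehydrogenase of retinol metabolism, at least 3.41-fold. Hilpda, a lipid droplet protein, rose from 8.53 and 8.60 to 11.28 and 11.27 (2.72, SE 0.10), and Grasp, a scaffold of receptor trafficking, by 2.88 (SE 0.18). Rgs17, a brake on G protein signalling, rose at least 2.45-fold from below background, while Rgs4, of the same family, fell to below background from 8.84 and 8.93, at least 4.42-fold. Among falls outside the lists were Vnn3, a vanin, from 12.32 and 12.35 to 7.65 and 7.68, Duoxa2, a maturation factor of an oxidase, at least 3.34-fold, Neurl3, at least 2.44-fold, and the lymphotoxin Ltb, at least 3.20-fold. The last 3 ended below background, where they also lay on the DMSO arrays of 4 h.

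The 2 h response was set beside the 4 h response of the same control cells, which shares no array with it and had 1112 genes (14.4%) higher and 1369 (17.7%) lower. Of the 818 genes higher at 2 h, 266 (32.5%) were higher at 4 h too, which is 23.9% of the 1112, while 206 (25.2%) were lower and 346 passed in neither direction. Of the 833 lower at 2 h, 260 (31.2%) were lower at 4 h, 19.0% of the 1369, and 83 (9.96%) higher. By the interaction of treatment and time, the effect was more positive at 4 h for 975 genes (12.6%) and more negative for 1086 (14.0%). Of the 15 measured CREB-linked early genes 7 were higher and 3 lower at 4 h (median 0.33), against 12 and 0 at 2 h. Some early genes had a smaller or an opposite effect at 4 h. Junb went from 2.05 at 2 h to -2.70 at 4 h, Fosl2 from 2.93 to -0.20, Atf3 from 2.95 to 0.30, Klf4 from 4.03 to 0.58 and Hilpda from 2.72 to -0.54. Fosb was below background in both groups at 4 h. For Junb, Fosl2, Atf3, Klf4 and Hilpda the difference between the times passed the test, from -2.66 for Atf3 to -4.74 for Junb. Nr4a2 and Sik1 were still at least 2.41-fold and 1.87-fold higher at 4 h. Several other genes, metabolic enzymes among them, had larger effects at 4 h past the test, 4 of them from DMSO levels below background. G6pc was at least 21.5-fold higher at 2 h and at least 69.1-fold at 4 h, Etnppl at least 3.85-fold and 11.6-fold, Gnmt at least 1.66-fold and 5.24-fold, and Mmd2 at least 3.44-fold and 12.4-fold. Ass1, measured in all groups, had 1.46 and 1.92, while Ppp1r3c had 3.22 and 3.21, with no difference past the test. Pck1 went the other way, with a smaller effect at 4 h past the test (difference -1.67). At 4 h it was at least 1.21-fold higher, from DMSO levels below background. The effect on Igfbp1 was smaller at 4 h too (difference -2.10), when it went undetected with DMSO and with forskolin alike. Both differences are fitted sizes and not measured ones.

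**Figure D4:**
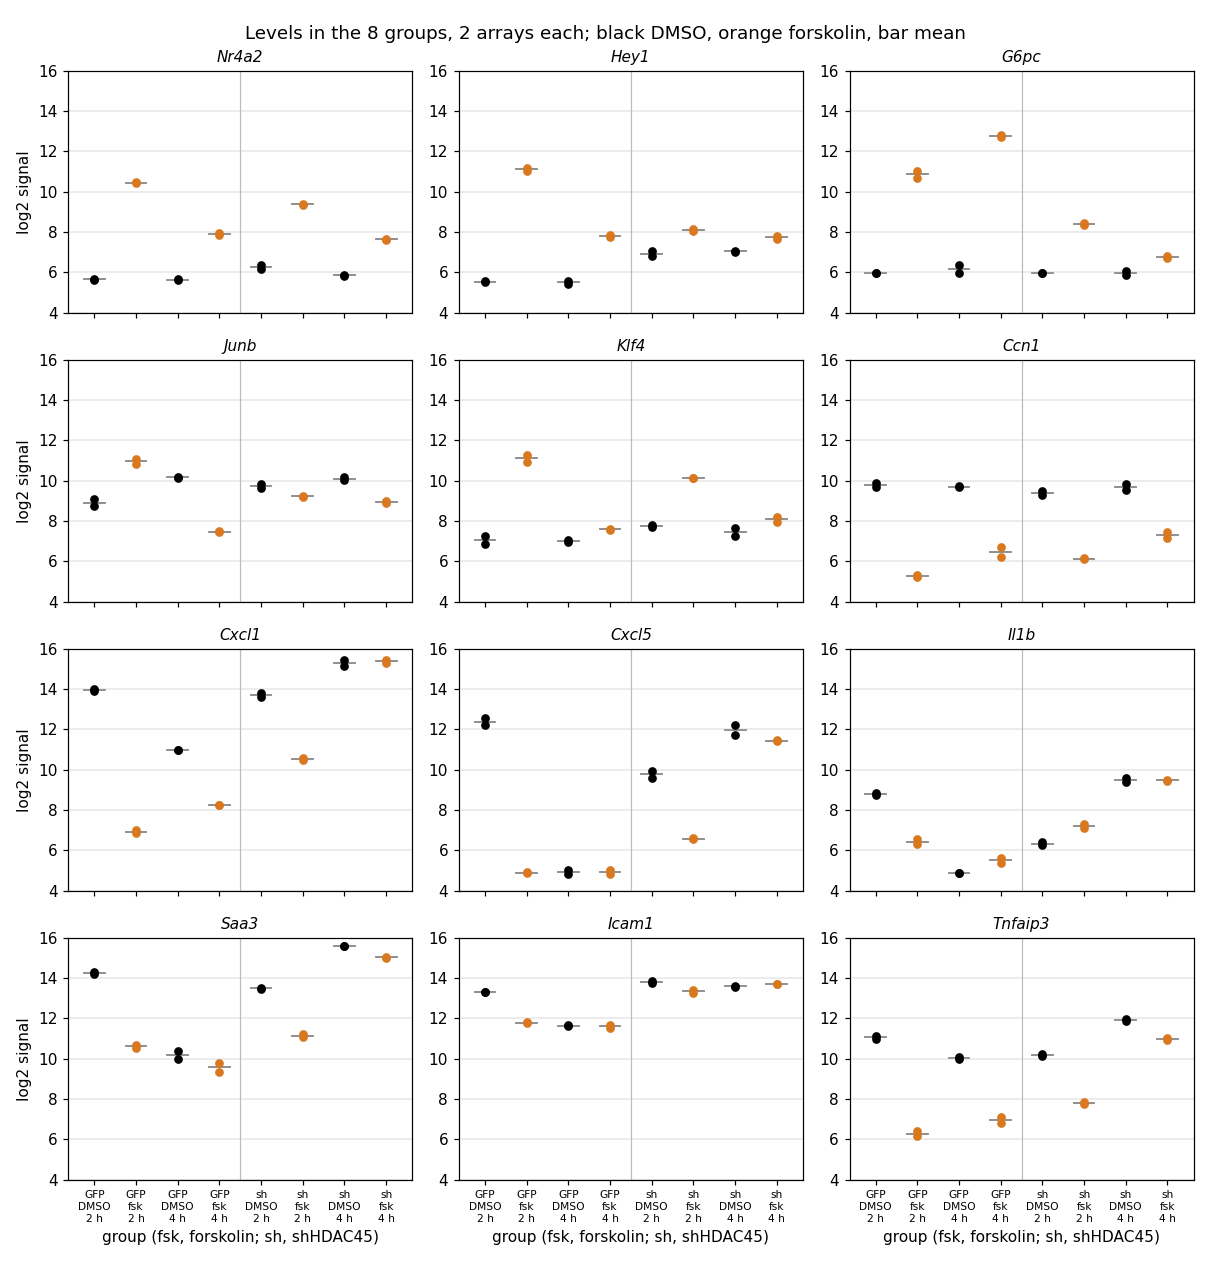
Levels (log2 signal) of 12 genes in the 8 groups of 2 arrays, control virus to the left of the vertical line and shHDAC45 virus to the right, DMSO in black and forskolin in orange, with a bar at each mean. Nr4a2, Hey1 and Klf4 are highest after 2 h of forskolin in control cells, Cxcl5 and Il1b are lower at 4 h than at 2 h of DMSO in control cells and higher in shHDAC45 cells, and Ccn1 is low wherever forskolin was given.

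In cells with the shHDAC45 virus the same 2 h of forskolin gave 177 genes (2.29%) higher and 195 (2.52%) lower. Those arrays are also separate from the 4 described here. Of the 818 genes higher in control cells 127 (15.5%) were higher in shHDAC45 cells, 71.8% of the 177, and 4 lower. Of the 833 lower ones 140 (16.8%) were lower, 71.8% of the 195, and 5 higher. By the interaction of treatment and virus the effect was more positive in shHDAC45 cells for 242 genes (3.12%) and more negative for 220 (2.84%). For some early genes the difference between viruses did not pass, such as Crem at 3.42 in control and 3.28 in shHDAC45 cells, Dusp1 at 1.54 and 1.69, Hilpda at 2.72 and 2.38 and Bhlhe40 at 2.06 and 1.93. Others differed past the test, with Sgk1 at 3.90 and 1.38 (difference -2.52) and Junb at 2.05 and -0.52 (-2.56), both measured in all 4 groups. Where DMSO levels lay below background only bounds hold, and the size of the difference is not known. G6pc was at least 21.5-fold higher in control and at least 3.83-fold in shHDAC45 cells. Hey1 was at least 25.4-fold higher in control cells and 1.19 higher (log2) in shHDAC45 cells, where it was detected in both groups. Pck1 and Etnppl, at least 4.33-fold and 3.85-fold higher in control cells, were below background in both groups of shHDAC45 cells. Falls were smaller too for Cxcl1 (-7.02 and -3.17) and Vnn3 (-4.67 and -1.93). Cxcl5 was at least 50.2-fold lower in control cells and lower by 3.18 (log2) in shHDAC45 cells. Il1b, at least 4.20-fold lower in control cells, was at least 1.67-fold higher in shHDAC45 cells. DMSO levels differed for some of these genes. Il1b averaged 8.81 in control and 6.34, below background, in shHDAC45 cells under DMSO at 2 h, and Cxcl5 12.39 and 9.77. Other DMSO differences between the viruses are not listed here, and the part of DMSO levels in the smaller effects was not tested.

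**Figure D5:**
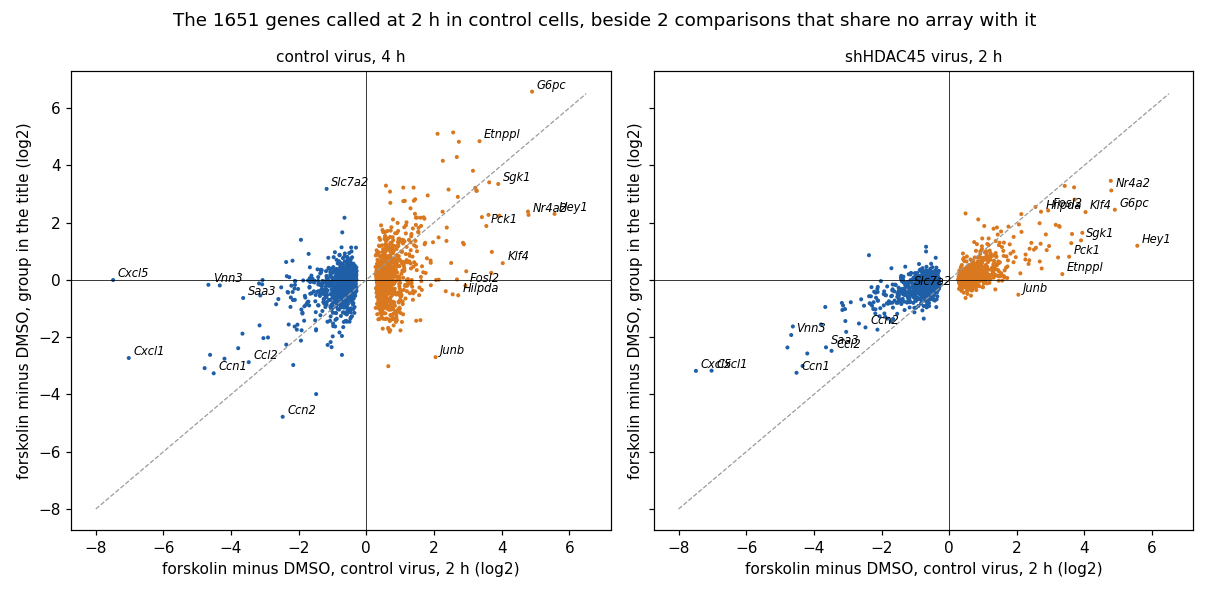
Each of the 1651 genes called at 2 h in control-virus cells is placed by its log2 difference there (horizontal) and by its log2 difference at 4 h in control cells (left) or at 2 h in shHDAC45 cells (right), with the dashed line marking equal values. At 4 h 206 of the 818 rises (orange) were called lower, while in shHDAC45 cells 4 were, and the points there are drawn towards 0 on the vertical axis.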

How the data were processed

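RNA from mouse hepatocyte cultures was measured on Illumina bead arrays. The deposited intensity values are probe signals from GenomeStudio, per the submitters' processing notes, with no normalization, and the deposited detection p-value of each probe on each array stands beside them. A second deposited table holds the authors' normalized intensity values, used as an alternative. Values were background-corrected from the detection p, quantile-normalized and put on the log2 scale (neqc, offset 16, limma 3.58.1, R 4.3.3). Of 24613 probes, 20984 name 1 gene by GEO's platform annotation, and 10439 were kept for passing a detection limit of 0.01 on 2 arrays or more. Genes with several detected probes (1293) were represented by the brightest, leaving 7746. One limma model of 8 group means (8 residual and 4.6 prior degrees of freedom) gave every contrast, with Benjamini-Hochberg adjustment over all genes and a threshold of 0.05. The script was tested on simulated data.

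Named genes are the 25 largest rises and 25 largest falls, up to 4 called members of each of 36 lists by smallest p, all members of the cAMP and CREB lists, 9 genes of glucose metabolism and deacetylation, and the 6 largest differences in each direction of each interaction. Members, lists and tests were chosen with earlier results of these data known. A gene with no probe detected on any array of a group counts as below background there. It has only a bound, computed from the lowest detected signal per array. Arrays carry the letters A and B, which the labels do not explain and the main model did not use as pairs. Deviations of same-lettered arrays from their group means correlated at 0.222 between the 2 groups, which does not settle whether the letters pair the arrays. With the letter as block 2027 genes were called at 2 h in control cells. Alternatives covered background, scaling, filters, variance prior, blocks, the DMSO arrays used and each array left out. Promoters and coordinates are RefSeq's for GRCm38.p6.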

Additional observations from a re-analysis of the deposited data

Results flagged for a closer look

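The forskolin effect differed between times in control cells, by limma's interaction test, for these named genes (effect at 4 h minus at 2 h, log2). It was more positive at 4 h for Cxcl5 (7.48), Vnn3 (4.50), Slc7a2 (4.35), Cxcl1 (4.30), Cxcl2 (4.14), Crp (3.33), Fbp1 (2.37), G6pc (1.67) and Hdac4 (0.85). It was more negative at 4 h for Junb (-4.74), Lmcd1 (-3.66), Klf4 (-3.45), C2cd4a (-3.45), Hey1 (-3.26), Hilpda (-3.25), Igfbp1 (-2.10), Hdac7 (-1.92) and Pck1 (-1.67).

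At 2 h the effect differed between the viruses by the same test (shHDAC45 minus control). It was more positive in shHDAC45 cells for Cxcl5 (4.31), Cxcl1 (3.85), Il1b (3.23), Ccl7 (2.99), Vnn3 (2.74) and Rgs4 (2.72), and more negative for Hey1 (-4.37), Etnppl (-3.15), Pck1 (-2.74), Junb (-2.56), Sgk1 (-2.52), G6pc (-2.45) and Ppargc1a (-1.38).

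Values of genes below background in 1 or more groups of a contrast (among them Cxcl5, Cxcl2, Il1b, Rgs4, Hey1, G6pc, Pck1, Etnppl, Ppargc1a, Igfbp1 and C2cd4a) are fitted sizes and not measured ones.

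Outside the named genes, 194 of 1131 detected probes that name no single gene passed the test at 2 h in control cells, 93 higher and 101 lower, with log2 differences from -2.31 to 4.24.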

How the results depend on the processing

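The count of 1651 genes called at 2 h in control cells was 1087 with only the arrays compared and 1041 to 1654 with 1 array left out. It was 1548 to 2027 under other background, scaling, filter and variance settings, the letter as replicate block included (2027, all 1651 kept), and 2214 with the authors' replicate numbers as replicate block on their normalized values, an alternative chosen after seeing the data. The interaction with virus gave 462 genes, 806 with that block and 300 with only the arrays compared. The 2 h effect in shHDAC45 cells gave 372, then 591, 183, and 190 to 370 with 1 array left out. The share of higher calls was 49.5%, 59.0% after median scaling and 41.0% against the DMSO arrays of 4 h. Against those arrays these log2 differences changed sign: Acaa1a 0.021, Adgre1 0.057, Cd14 0.65, Cd44 0.30, Duoxa2 0.20, Fbp1 0.53, Hamp 0.26, Hdac11 -0.38, Icam1 0.15, Ikbke 0.17, Il1b 1.55, Lmcd1 -0.79, Ltb 0.052, Mvd -0.14, Pklr 0.24, Prom1 -0.16, Saa3 0.41, Slc7a2 2.03, Ttr -0.39 and Vsig4 -0.34. With the DMSO arrays of both times Lmcd1 had -0.069 and Slc7a2 0.43. The cause was not tested. Of these, Il1b, Cd44, Duoxa2, Ltb and Mvd lay below background in both groups compared, so that their sign carries no direction. Of 5248 log2 differences of named genes over all settings, 5093 stayed on their side of the threshold, 123 no longer passed and 10 newly passed. In all 45 changed sign, 21 of them of called genes and 23 passing in neither setting. Genes below background in a group limit folds to bounds.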
